A study of Bos taurus with 2 samples.

Results

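CpG methylation of cattle bone was examined for large stretches of the genome in which CpG-poor DNA had a low level in both of the samples sequenced. Autosomes 1 to 29 were divided into bins of 100 kb, and only CpG sites of 1 kb windows with under 20 CpG sites were used. A bin with at least 1000 calls in each sample was kept, and the bins that fell in the lowest 5% of Bone_1 and also in the lowest 5% of Bone_2 were taken. Of 24833 bins, 801 (3.23%) met this rule, and they cover 80.1 Mb and hold 458633 CpG sites of CpG-poor windows. They are called low bins here. Since they were chosen by their methylation levels in both samples, these levels are a description with no test.

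The study holds 2 whole-genome bisulfite sequencing libraries, Bone_1 and Bone_2, both labelled as bone of female Holstein cattle. No treatment, age or genotype is given for either, and nothing says whether they came from 1 animal or 2, so an SD between them measures the spread between these samples and may be technical. Each CpG cytosine carries a count of methylated and of unmethylated calls, and a level is the methylated share of all calls, in percent. The files held 582241763 calls in Bone_1 and 440334436 in Bone_2. Bulk bone holds several cell types, and a level averages over cells, so a site methylated in part of the cells and a mixture of cell types cannot be told apart. The tissue label could not be checked against marker genes, as no RNA was measured.

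Mammalian DNA is methylated at most CpG sites, and DNMT1 copies the pattern onto the new strand at each round of replication. Long stretches with intermediate levels, known as partially methylated domains, have been described in cultured cells, placenta and tumours, where they coincide with CpG-poor, late-replicating DNA at the nuclear lamina. Within such domains, isolated CpG sites between A or T bases are known to carry the lowest levels.

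The low bins had a level of 64.2% in Bone_1 and 45.7% in Bone_2, a mean of 54.9% ± 13.1 (SD, n = 2). The other 24032 bins stood at 78.5% in Bone_1 and 61.0% in Bone_2. The gap between them was 14.3 points in Bone_1 and 15.3 points in Bone_2, or 14.8 ± 0.692 points (SD, n = 2). The samples therefore differed from each other by more than the low bins differed from the rest, whereas the gap itself was similar in both. Single low bins ranged from 31.5% to 68.6% in Bone_1, with a median of 65.8%, and from 20.6% to 50.3% in Bone_2, with a median of 47.6%. The medians over all bins were 77.9% and 59.9%. The number of calls behind a low bin had a median of 6926 in Bone_1 and 9916 in Bone_2, with at least 1197 and 1122. A 95% Wilson interval reached a median of 1.12 points to each side in Bone_1 and 0.981 points in Bone_2, and such intervals cover counting error only.

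The distribution of bin levels had a single peak in each sample, at 78% to 80% in Bone_1 and at 58% to 60% in Bone_2. The low bins lay in its lower tail and were not a separate group. The limits were 68.57% in Bone_1 and 50.30% in Bone_2. The last 3 bins inside the limit of Bone_1 lay at 68.56% to 68.57%, and the first 3 outside at 68.57%. In Bone_2 the last 3 bins inside lay at 50.29% to 50.30%, and the first 3 outside at 50.30% to 50.32%. Bins on either side of the limit thus differed by far less than their counting error.

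**Figure D1:**
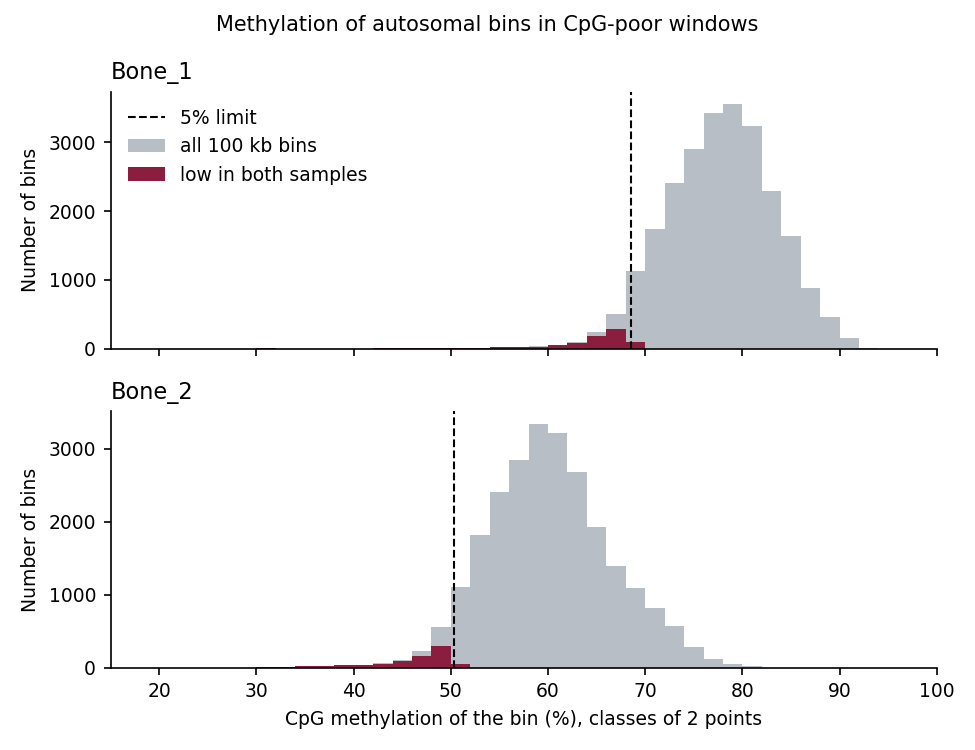
Number of autosomal 100 kb bins (vertical axis) by CpG methylation in CpG-poor windows (horizontal axis, percent, classes of 2 points) in Bone_1 (top) and Bone_2 (bottom), with the 801 bins low in both samples in dark red and the 5% limits of 68.57% and 50.30% as dashed lines. Each sample shows 1 peak, and the low bins lie in the tail below it, together with 440 bins low in that sample alone.

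The choice in a single sample can be read in the other, which it did not use. Of the 1241 lowest bins of Bone_1, 801 (64.5%) were also among the 1241 lowest of Bone_2. Read in Bone_2, the bins chosen in Bone_1 had a median rank at percentile 3.32, and 1235 of 1241 (99.5%) lay below the median bin. In the other direction, all 1241 bins chosen in Bone_2 lay below the median bin of Bone_1, and 86.9% were in its lowest 10%. Across the 24833 bins the levels of the 2 samples had a Pearson r of 0.913 and a Spearman rho of 0.914. These are correlations across bins, which share libraries, base composition and neighbours, and no p is given. The rule was also applied to the calls of each strand alone, with a lower minimum of calls per bin. On the plus strand 724 bins met it and on the minus strand 710, with 482 in common (66.6% and 67.9% of each list). The level of the 801 bins was 64.1% on the plus and 64.3% on the minus strand in Bone_1, and 45.7% on both in Bone_2.

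All 801 low bins were lower in Bone_2 than in Bone_1, as were 24832 of the 24833 bins. The median difference was 18.4 points in the low bins and 17.7 points in the others. A difference of at least 20 points was found in 193 low bins (24.1%), beside 15.2% over all bins. On the odds scale the order was the opposite, with an odds ratio of Bone_1 to Bone_2 of 2.13 in the low bins and 2.34 in the others.

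The word block describes only some of the low bins. Joined with their neighbours, they formed 400 runs, of which 260 (65%) were single bins. There were 58 runs of 2 bins, 32 of 3 and 15 of 4. The other 35 runs had 5 bins (500 kb) or more, held 269 low bins (33.6%) and lay on 18 chromosomes. Among these, 11 were at least 1 Mb long and together held 131 low bins. Levels were lower in longer runs. Single bins had 65.7% in Bone_1 and 47.9% in Bone_2, bins of runs of 2 to 4 had 64.0% and 45.6%, and bins of runs of 5 or more had 62.9% and 43.5%. Position moved with length, since 14 of the 260 single bins, 47 of the 272 bins of runs of 2 to 4 and 117 of the 269 bins of longer runs lay in the first 2 Mb of a chromosome, where low bins were lower. Beyond the first 2 Mb the levels were 65.8%, 65.4% and 64.4% in Bone_1 and 48.1%, 46.8% and 45.3% in Bone_2, in the same direction and closer together. The longest run measured 1700 kb here, 3300 kb when the lowest 10% of bins were taken, 1100 kb with bins of 50 kb and 700 kb with all CpG sites counted. When a gap of 1 bin was bridged, 324 runs remained and 51 of them spanned at least 5 bins.

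The longest run lay at chr21:200001-1900000 and had 17 bins (1.7 Mb). Its level was 61.1% in Bone_1, with bins from 52.0% to 67.0%, and 40.3% in Bone_2, with bins from 36.01% to 46.7%. It was bordered by bins at 71.0% and 53.8% on the lower side and at 73.9% and 54.8% on the upper side. With 668 CpG sites of CpG-poor windows per bin it was less CpG-poor than most low bins. All 163 of its 10 kb pieces with at least 100 calls lay below the genome-wide median piece in both samples, which describes the spread of the calls that chose the run.

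The second longest run, at chr29:37800001-39200000, had 14 bins with 64.0% in Bone_1 and 43.0% in Bone_2. All 140 of its 10 kb pieces were below the median in both samples. It lay far from the chromosome start, and the bins that bordered it were nearly as low, at 69.4% and 45.9% before it and 69.0% and 43.6% after it. In Bone_2 both of these neighbours were under the limit, so the run ended there only because of Bone_1.

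There were 3 runs of 12 bins. The run at chr23:300001-1500000 had 65.2% and 46.4%, with 116 of its 117 pieces below the median in Bone_1 and all 117 in Bone_2. The run at chr4:1700001-2900000 had 66.3% and 47.7%, the highest levels of the 5 longest runs, with all 120 pieces below the median in Bone_1 and 119 in Bone_2. The run at chr7:8700001-9900000 had 63.4% and 41.9%, with 114 of 114 pieces below the median in both. The bin after it had too few calls to be used, and a further run of 5 low bins began directly beyond that bin, at chr7:10000001-10500000, with 64.4% and 43.3%.

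Lower levels were found in several shorter runs. The lowest of the 35 was at chr28:1-600000, 6 bins at 51.2% in Bone_1 and 34.5% in Bone_2. The run at chr19:1-1000000 had 57.4% and 37.6%, and the run at chr1:100001-600000 had 58.1% and 38.2%. The run at chr15:83900001-85000000 had 59.1% and 38.2% over 11 bins and lay at the far end of its chromosome, with no bin after it. Chromosome 15 also carried an 11-bin run near its start, at chr15:100001-1200000, with 59.6% and 39.9%.

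At the median bin, the ends of the 35 long runs were not sharp. At their outermost 100 kb the median bin had 66.2% in Bone_1 and 46.3% in Bone_2. In the first 100 kb outside it had 69.5% and 50.4%, for 57 run ends with enough calls there. Outside bins were counted per run end, so a bin between neighbouring long runs counted for each. Bins of neighbouring long runs were included. In the bin that reached 500 kb outside the medians were 69.3% and 51.7%, and in the bin that reached 1000 kb they were 70.8% and 53.4%, still under the medians over all bins. Low bins returned on the far side of the gap. At 200 kb outside, 33.3% of bins were themselves low in both samples, and at 1000 kb 16.1% were, beside 3.23% over all bins. Since 14 of the 35 runs began in the first 2 Mb of a chromosome, where low bins were frequent, the other 21 were also read alone, with bins beyond the first 2 Mb. There 31.6% of bins were low at 200 kb outside and 15.4% at 1000 kb, beside 2.57% of all bins beyond the first 2 Mb. The step at the end itself is partly fixed by the rule, because the last bin inside must be under both limits and the first outside must not.

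**Figure D2:**
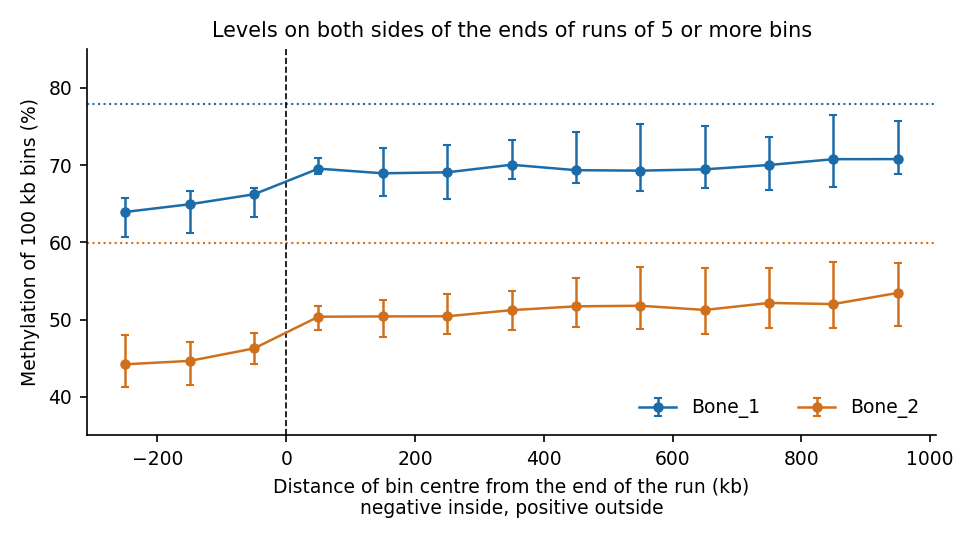
Methylation of 100 kb bins (vertical axis, percent) by distance of the bin centre from the end of a run of 5 or more low bins (horizontal axis, kb, negative inside the run), with points at the median, bars from the lower to the upper quartile and dotted lines at the median over all bins of Bone_1 (blue) and Bone_2 (orange). Outside the runs the medians stay at 68.9% to 70.8% in Bone_1 and 50.4% to 53.4% in Bone_2, below the dotted lines.

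Every autosome held at least 1 low bin, but their share ranged widely. It was highest on chromosome 29, with 38 of 511 bins (7.44%), chromosome 15, with 60 of 849 (7.07%), and chromosome 23, with 33 of 524 (6.30%). It was lowest on chromosome 22, with 1 of 606 bins (0.165%), chromosome 14, with 6 of 824 (0.728%), and chromosome 13, with 9 of 833 (1.08%). The median over chromosomes was 3.58%, and 16 of the 29 were above the 3.23% over all bins.

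The low bins were most frequent at the start of the chromosomes. Cattle autosomes are acrocentric, with the centromere close to one end. In the first 1 Mb, 130 of 277 bins (46.9%) were low in both samples, and these were found on 26 chromosomes, all but 3, 11 and 22. From 1 to 2 Mb the share was 16.6%, from 2 to 5 Mb 9.77%, from 5 to 10 Mb 7.18%, from 10 to 20 Mb 3.00%, and beyond 20 Mb 1.82%. At the opposite end the share was 3.21%, with 18 of 561 bins in the last 2 Mb, and 11 of these 18 were the run at the end of chromosome 15. The first 2 Mb thus held 178 low bins (22.2% of the 801). Of the 35 long runs, 14 began there, on 13 chromosomes. The other 623 low bins made up 2.57% of the bins beyond the first 2 Mb, and their share per chromosome there still ranged from 0.171% on chromosome 22 to 6.52% on chromosome 29.

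**Figure D3:**
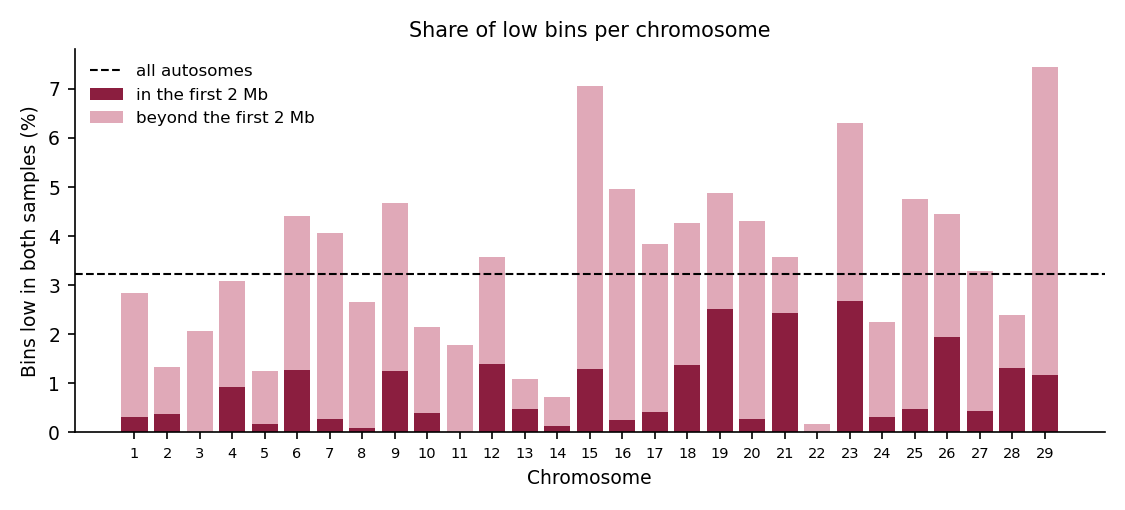
Share of 100 kb bins low in both samples (vertical axis, percent of the bins with enough calls) on each autosome (horizontal axis), divided into bins of the first 2 Mb (dark) and bins beyond (light), with the share over all autosomes, 3.23%, as a dashed line. Chromosomes 29, 15 and 23 stand highest and chromosome 22 lowest.

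The low bins of the first 2 Mb were also lower than those elsewhere. Their level was 60.8% in Bone_1 and 41.6% in Bone_2, beside 65.3% and 46.9% in the 623 others, a difference of 4.91 ± 0.561 points (SD, n = 2). These levels pool calls, so bins with many calls weigh most. The median low bin stood at 63.6% and 43.0% in the first 2 Mb, and at 66.3% and 48.1% beyond. The other 389 bins of the first 2 Mb had 78.5% and 60.7%, close to the rest of the genome. Depth differed too, with 17.3 calls per site in Bone_1 and 21.4 in Bone_2 in the low bins of the first 2 Mb, against 13.4 and 18.3 in the other low bins. The median number of calls per bin was closer, at 7035.5 and 9666 against 6882 and 9972. Single bins held far more calls, such as chr13:300001-400000 with 112332 in Bone_1. The part of depth in these levels was not tested. Without the first 2 Mb, the limits set anew gave 731 low bins, with a gap to the rest of 13.3 points in place of 14.8.

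The low bins were poor in CpG sites. They had a median of 547 sites of CpG-poor windows per bin (quartiles 497 and 625), against 706 (594 and 825) in the others, and 693 of 801 (86.5%) were under the median of the others. Per kb the low bins had 5.73 such sites and the others 7.07. With all windows counted the values were 7.90 and 10.5 per kb, a ratio of 0.754. Windows with at least 20 CpG sites numbered 61.0 per Mb in the low bins and 100.1 per Mb in the others. Windows with at least 60 numbered 5.22 and 8.46 per Mb. No window with at least 20 sites was found in 33.1% of low bins and in 20.3% of the others. CpG number entered the rule through the limit of 20 sites per window, and the direction depended on it. Bins chosen by the same rule with all CpG sites counted were rich in CpG, with a median of 1605 sites of any window against 850 over all bins. These values are given as a description with no test.

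All bins were ranked by this number of sites and divided into 10 classes of equal size. The share of low bins was 10.99% in the class with the fewest sites (54 to 514) and 7.61% in the next, and these 2 classes held 462 low bins (57.7%). The share fell from class to class to 0.685% in class 8, and was 0.644% in class 9 and 0.725% in class 10, the richest. Among the 6056 other bins whose number of sites lay between the quartiles of the low bins, the level was 76.5% in Bone_1 and 58.9% in Bone_2, a gap of 12.8 ± 0.595 points (SD, n = 2) to the low bins. That these bins stood higher was fixed by the rule at any CpG number, so only the size of the gap is described. They held 52.9 windows with at least 20 sites per Mb, and 41.9% of them had none. The low bins, of any CpG number, had 61.0 per Mb, and 33.1% had none, but this pooled unlike parts. In the first 2 Mb the low bins had 112.5 per Mb, and 21.3% had none. Beyond it they had 46.3 per Mb, and 36.4% had none. Low bins beyond the first 2 Mb thus had fewer such windows per Mb than those 6056 bins, although a smaller share had none. Most CpG-poor bins were not low bins, since only 273 of the 2483 bins of the poorest class were.

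**Figure D4:**
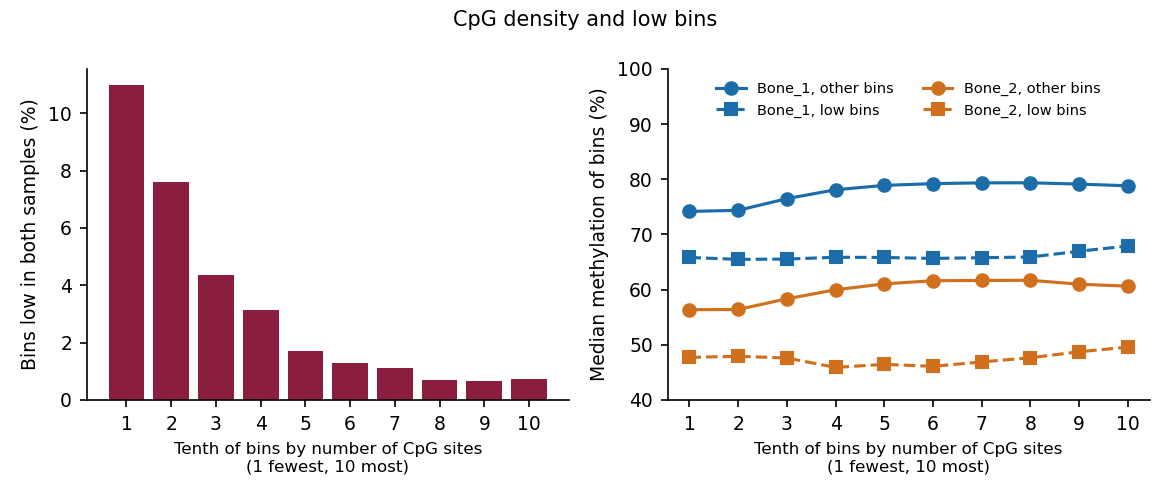
Left, share of 100 kb bins low in both samples (vertical axis, percent) in 10 equal classes of bins by number of CpG sites in CpG-poor windows (horizontal axis, 1 fewest). Right, median methylation of the low bins (squares, dashed) and of the other bins (circles) in each class (vertical axis, percent, starting at 40), for Bone_1 (blue) and Bone_2 (orange). The share of low bins falls from 10.99% to under 1%, while the median of the other bins in Bone_1 is 74.2% in class 1 and 79.4% in class 8.

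Methylation inside the low bins depended on the bases and sites around each CpG. Sites were called solo where no other CpG lay within 35 bp and clustered otherwise, and were divided by the bases on both sides of the CpG. Solo sites with A or T on both sides were lowest, at 51.8% in Bone_1 and 35.7% in Bone_2 over 90692 sites. Clustered sites with C or G on both sides were highest, at 72.5% and 55.4% over 36875 sites. The difference between these classes was 20.7 points in Bone_1 and 19.7 in Bone_2, or 20.2 ± 0.715 points (SD, n = 2). In the other bins the same classes stood at 70.7% and 82.6% in Bone_1 and at 53.9% and 66.7% in Bone_2, a difference of 12.4 ± 0.660 points. The wider difference depended on choosing bins by their CpG-poor windows. Where bins were chosen with all CpG sites counted, which kept 86 of the 801, the difference, still measured in CpG-poor windows, exceeded that of the other bins by -0.679 points, that is, it was smaller. The order of the 6 classes was the same in low bins and others in both samples.

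Each class was lower in the low bins than elsewhere, by unequal amounts. The gap to the other bins was 18.6 ± 0.528 points (SD, n = 2) for solo sites between A or T, 15.3 ± 0.0924 for solo sites with mixed flanks and 13.9 ± 0.00951 for solo sites between C or G. For clustered sites it was 14.3 ± 0.244, 11.3 ± 0.621 and 10.7 ± 0.847 points in the same order. Solo sites made up 52.5% of the sites of low bins and 46.2% of the others, and sites between A or T 34.8% and 31.5%. With the mix of the 6 classes set equal to that of the other bins, and each site class weighted by its number of sites, the gap was 13.8 points in Bone_1 in place of 14.8, and 14.1 in Bone_2 in place of 15.1. The contrast was wider in the low bins of the first 2 Mb, at 26.0 ± 1.12 points between the extreme classes, than in those beyond, at 18.3 ± 0.461.

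Split into the 10 sequences that the bases on both sides allow, solo sites in low bins were lowest at ACGT, with 50.9% in Bone_1 over 26445 sites, and next at ACGA, with 52.0%, and TCGA, with 52.2%. They were highest at CCGG, with 66.5% in Bone_1 over 11577 sites. In Bone_2 the same 3 sequences were lowest, ACGT, ACGA and TCGA, and GCGC was highest at 49.97%. The gap to the other bins in Bone_1 was smallest at CCGG, with 11.01 points, and largest at TCGA, with 20.3. Levels also varied with the distance to the nearest CpG. In low bins the level was 72.2% in Bone_1 and 56.1% in Bone_2 where the nearest CpG was 2 to 10 bp away, 64.0% and 46.2% at 21 to 35 bp, and 58.7% and 41.7% at 36 to 75 bp. From there to 300 bp it was flat, at 58.1% and 40.6% and then 58.8% and 41.9%, and beyond 300 bp it was 55.5% and 39.7%. In the other bins the level in Bone_1 was 82.9% at 2 to 10 bp, 75.4% at 36 to 75 bp and 72.2% beyond 300 bp.

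**Figure D5:**
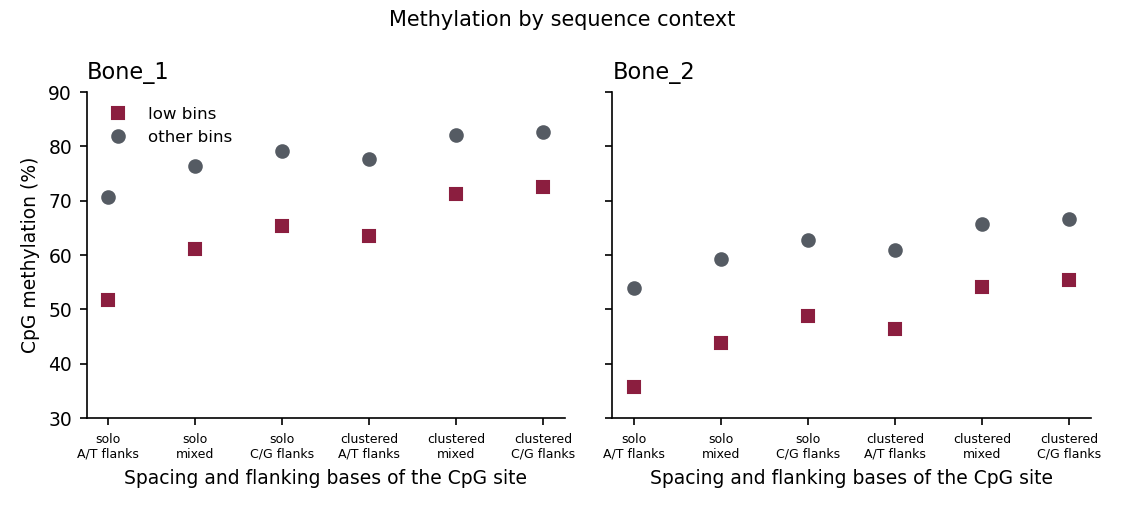
CpG methylation (vertical axis, percent, starting at 30) of 6 site classes (horizontal axis) by spacing (solo, no other CpG within 35 bp, or clustered) and by flanking bases (A/T on both sides, mixed, C/G on both sides), in the low bins (squares) and the other bins (circles) of Bone_1 and Bone_2. Solo sites between A or T are lowest in both, at 51.8% and 70.7% in Bone_1, and the squares and circles are farthest apart there.

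The low level was spread over the length of the bins and was intermediate rather than absent. Over the 51211 CpG-poor windows that had 20 calls or more in both samples, the median was 65.3% in Bone_1 and 46.9% in Bone_2, beside 79.6% and 61.1% in the other bins. Windows under 20% were rare, at 1.08% and 2.44% in low bins and 0.434% and 0.453% elsewhere. Levels from 20% to 60% were held by 33.6% of windows in Bone_1 and 85.7% in Bone_2, beside 8.71% and 45.6% elsewhere. Most windows of low bins in Bone_1, 55.7%, stood at 60% to 80%, and 11.8% did in Bone_2, beside 41.8% and 49.7% elsewhere. The median low bin had 90.2% of its windows below the genome-wide median window in Bone_1 and 90% in Bone_2, and 800 of the 801 had most of them below it in both samples. These windows hold the calls that chose the bins, so high shares were largely set by the rule. They describe only how those calls were spread, and no such share is given for the other bins. Among single sites covered by 10 calls or more in both samples, 43.7% stood between 30% and 70% in Bone_1 and 67.8% in Bone_2, against 19.4% and 56.6% in the other bins. At 10% or less stood 3.77% and 5.34% of sites in low bins, and 1.87% and 2.15% in the others. The level of a site with as few as 10 calls has a wide counting error, which adds to the spread of single sites.

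A few low bins departed from this. In 11 of the 801 more than 10% of the windows were under 20% in both samples. No such count was made for the other bins, so this is no contrast with them. The lowest bin of both samples was chr5:26000001-26100000, with 31.5% in Bone_1 and 20.6% in Bone_2 over 446 sites, where 40.5% and 56.8% of windows were under 20%. Next in Bone_1 came chr23:30100001-30200000, with 42.7% and 31.6%, and chr3:21000001-21100000, with 43.5% and 35.9%. Next in Bone_2 came chr19:1-100000, with 46.3% and 30.3%, and chr7:51900001-52000000, with 45.2% and 30.4%. The bin on chromosome 19 is the first of a run of 10, and 2.22% of its windows in Bone_1 and 15.6% in Bone_2 were under 20%.

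Windows with at least 20 CpG sites were left out by the rule and give a separate reading of the same bins. CpG-dense windows of mammalian genomes include CpG islands, which are mostly unmethylated. Dense windows with 20 to 39 sites had a median of 70.3% in Bone_1 and 51.2% in Bone_2 inside the low bins, and 82.4% and 63.4% outside. They were therefore lower by 12.1 and 12.2 points at the median, near the gap of the CpG-poor windows. Depth was 27.7 and 14.5 calls per site inside and 19.9 and 10.7 outside, and its part was not tested. Beyond the first 2 Mb, 14.5% and 16.9% of these windows in low bins were under 20%, beside 4.19% and 4.14% in the other bins. Within the first 2 Mb the shares were 0.360% and 0.648%, beside 2.80% and 2.67%. Windows with at least 60 sites were mostly unmethylated in both, and 67.8% and 68.5% of 400 such windows in low bins were under 20%, beside 72.3% and 71.8% outside.

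Dense windows behaved differently in low bins of the first 2 Mb and in the rest. Beyond the first 2 Mb, 46.2% of windows with 40 to 59 sites in low bins were under 20% in Bone_1 (95% Wilson interval 41.7% to 50.7%) and 51.7% in Bone_2 (47.2% to 56.2%), of 472 windows, beside 23.3% and 23.0% in the other bins. These windows share bins, runs and libraries, so the intervals cover counting error only and are too narrow for a contrast between groups of bins. In the first 2 Mb the share was 2.71% in both samples (1.38% to 5.26%), of 295 windows. The other bins of the first 2 Mb, with 12.1% and 12.4% of 1175 windows, were also under the other bins elsewhere. Windows with at least 60 sites gave 78.0% in both samples beyond the first 2 Mb, beside 72.5% and 72.0% in the other bins there, so the low bins were above the others, unlike in the pooled values. They gave 28.0% and 31.7% of 82 windows within it, where the other bins had 63.2% and 63.1% of 623. In the low bins of the first 2 Mb, windows with 40 to 59 sites had 42.5 calls per site in Bone_1 and 15.5 in Bone_2, against 23.6 and 7.12 in the other bins of the first 2 Mb, and the part of this depth in their levels was not tested. Beyond the first 2 Mb the depth of such windows was 16.8 and 7.54 calls per site in low bins and 21.4 and 7.55 in the others. Windows with at least 60 sites had 47.3 and 11.8 calls per site in low bins beyond the first 2 Mb, against 21.4 and 6.07 in the other bins there, and the part of this depth was not tested either.

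Depth in the CpG-poor windows themselves was similar in low bins and others and went in opposite directions in the samples. It was 14.3 calls per site in low bins and 15.4 in the others in Bone_1, and 18.96 and 17.8 in Bone_2, a ratio of 0.996 ± 0.0961 (SD, n = 2). The other bins with a CpG number between the quartiles of the low bins had 14.0 and 19.55. Against these the low bins were slightly deeper in Bone_1 and shallower in Bone_2. The opposite directions did not hold in every setting. Without the deepest 0.1% of sites the ratio was 0.854 in Bone_1 and 0.979 in Bone_2, so low bins were shallower in both samples. With windows under 10 sites as CpG-poor it was 0.940 and 0.981. With only sites of 10 to 20 calls in each sample, the gap in level was 13.1 points.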

How the data were processed

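DNA methylation was measured by whole-genome bisulfite sequencing (150 bp paired-end reads) in 2 bone samples. The submitters' processing notes name FastQC 0.11.5, Trim Galore 0.4.5, Bowtie2, Bismark 0.19.0 and the genome build ARS-UCD1.2, while the study's methods state another build, and coordinates are printed as the files give them. The authors removed duplicates and deposited counts of methylated and unmethylated calls for each CpG cytosine of each strand, with no minimum depth. Unmethylated lambda DNA was added to the libraries for checking conversion and was not analysed here.

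Here the counts of both strands were summed per CpG site with Python 3.11.15, numpy 2.4.6 and pandas 2.3.3. Bins, windows and runs were counted with the limits given in the text, and 61 of 24894 bins had too few calls. Flanking bases were read from the trinucleotide column of both strands. Both samples form 1 group, so no test between groups exists, and no test over bins was run because neighbouring bins share their source. The bins to be named by plan were those of the longest runs, those nearest the limits and the lowest bin of each sample. The next lowest bins of each sample were added to this plan. Other runs were named after their values were seen. The members, gene lists and measures were chosen with earlier results of these data known. Gene positions and sequences were not used, since the annotation at hand, of ARS-UCD2.0, is of another build. The scripts were tested on simulated data. Reads carry no molecular identifiers, so calls are not independent molecules. Alternatives varied the share of bins, the CpG limit, the depth, the averaging and the bin size.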

Additional observations from a re-analysis of the deposited data

Results flagged for a closer look

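The X chromosome lies outside the rule and was read with the autosomal limits. Of its 1368 bins with enough calls, 315 (23.0%) were under the limits of both samples, which draws attention because the share over the autosomes was 3.23%. The median X bin had 71.1% in Bone_1 and 53.1% in Bone_2, against 77.9% and 59.9% on the autosomes. The longest run of X bins under both limits had 69 bins, at chrX:37700001-44600000 (6.9 Mb), with 61.3% and 41.2%, longer than the 17 bins of the longest autosomal run. X bins under both limits had a median of 533 CpG sites of CpG-poor windows, beside 594 over all X bins and 547 in the autosomal low bins. Depth on X was 14.1 calls per site in Bone_1 and 17.9 in Bone_2, close to that of the autosomal bins. Both samples are labelled as female.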

How the results depend on the processing

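No paired analysis was possible because both samples form a single group. The limits that follow concern the number of low bins (801), their longest run (1700 kb), the gap in level to the other bins (14.8 points), their median CpG number (547), the excess of the context difference over that of other bins (7.83 points), the share of dense windows under 20% (18.4%), the ratio of depth (0.996) and the X bins (315). The dense share is a mean of both samples and was 12.5% in the other bins. It pools unlike parts of the low bins. Beyond the first 2 Mb it was 29.2%, beside 12.6% in the other bins there. Within the first 2 Mb it was 2.24%, beside 10.3%. Taking the lowest 3% gave 458 low bins and a gap of 16.8 points. Taking 10% gave 1748 low bins, a run of 3300 kb, a gap of 12.5, a dense share of 15.7% and 524 X bins. Using all CpG sites, dense windows included, gave 511 bins, of which only 86 were among the 801, with a longest run of 700 kb, a gap of 23.0 points (28.7 in Bone_1 and 17.3 in Bone_2, so no longer similar), a median of 1605 sites, a context excess reversed to -0.679 points, a dense share of 41.7% and 42 X bins. Bins of 50 kb gave 1469 low bins, a run of 1100 kb, a gap of 16.0, a dense share of 23.2% and 530 X bins, and bins of 200 kb gave 425, a gap of 14.0, a dense share of 11.4% and 179 X bins. The dense share was 11.1% with windows under 10 sites as CpG-poor, 20.7% with 3000 calls per bin and 43.8% for windows of at least 40 sites. Sites with 10 to 20 calls gave a gap of 13.1 points. Without the first 2 Mb, the gap was 13.3, the context excess 5.88 points and the dense share 26.6%. With members taken from 1 sample alone, the ranges were 1241 to 1241 low bins, 1700 to 2000 kb, gaps of 13.5 to 14.4 points, 546 to 552 sites, a context excess of 6.67 to 7.22, a dense share of 17.0% to 17.7%, a depth ratio of 0.912 to 1.03 and 378 to 391 X bins. Bin and list sizes change by construction, and the cause of the other shifts was not tested. An unweighted mean of site levels kept 699 of the 801 bins, and leaving out the deepest 0.1% of sites kept 788. The settings with each strand alone and without the first 2 Mb were chosen after seeing the data. Genes inside the low bins were planned, with an alternative, but not run for lack of an annotation of the build.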

Other observations

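The bins in the lowest 5% of a single sample numbered 440 in each and differed from each other in CpG-dense windows, which the rule left out. Bins low in Bone_1 alone held 73.9 windows with at least 20 CpG sites per Mb, and bins low in Bone_2 alone held 34.0, beside 61.0 in the bins low in both. These rates were not spread evenly over bins. No such window was found in 40.5% of bins low in Bone_1 alone and in 34.8% of bins low in Bone_2 alone. The median of all CpG sites was 574.5 and 605.5 per bin, so by both of these measures the order was reversed. In CpG-poor windows the number of sites was similar, with a median of 543 in bins low in Bone_1 alone, 570 in those low in Bone_2 alone and 547 in those low in both. Bins low in Bone_1 alone stood at 52.5% in Bone_2, and bins low in Bone_2 alone at 70.5% in Bone_1, both short of the levels of the remaining 23152 bins, 61.3% and 78.8%.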
